A study of Mus musculus with 64 samples.

Results

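Retromer and its sorting nexins carry membrane proteins out of endosomes, and their transcripts were followed here in mouse hippocampus and prefrontal cortex. The set held 10 genes of the 18193 genes with a probe set of their own on the array: Vps35, Vps26a, Vps26b and Vps29, the sorting nexins Snx1, Snx2, Snx5, Snx6 and Snx27, and the receptor Sorl1. All 27 probe sets annotated to these genes were taken. Of these, 24 passed the filter on low values, and 1437074_at of Snx5, 1451602_at of Snx6 and 1455302_at of Vps29 did not, at mean log2 levels of 5.20, 5.38 and 3.65. The genes were chosen by the measured drug difference of Snx6, which was higher with the drug in hippocampus, so that difference is described without a test.

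The groups came from Tg2576 mice, which over-express mutant human amyloid precursor protein, and from their wild-type littermates, all 4 months old and of the strain B6SJLF1, a cross of C57Bl/6 and SJL. All mice carried a minipump that infused them subcutaneously for 28 days with vehicle or with PF-04447943, an inhibitor of the phosphodiesterase PDE9A, so the pump was shared by controls and treated mice. Each combination of genotype, treatment and region (hippocampus, or the cortex that the sample labels call prefrontal and the series text frontal) held 8 arrays, 64 in all. Replicates are described only as mice of a group, and no label ties the number of a hippocampal array to the mouse of a cortical one. Tg2576 is a single transgenic line, so its differences from wild type are those of that line, and the labels do not name the promoter that drives the transgene.

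Retromer is built on a core of Vps35, a Vps26 subunit and Vps29, which holds cargo on the endosome. Snx1 or Snx2 pairs with Snx5 or Snx6 to bend the membrane into tubules that return receptors to the trans-Golgi network, while Snx27 links the core to cargo bound for the plasma membrane. Sorl1 is a retromer-bound receptor that sorts the amyloid precursor protein in neurons, and reduced retromer or Sorl1 function is linked to Alzheimer's disease.

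The promoters of Snx6 and Snx5 are shown because every tested probe set of both genes was lower in hippocampus than in prefrontal cortex, and because Snx6 led the choice of the set. The first ground is not particular to them. It also held for Vps35 and Vps26a, and by sign alone for Snx2 and Sorl1, whose promoters are not shown. The sequences are from RefSeq, mouse build GRCm38.p6, and run from 250 bases before to 50 bases after the gene start, on the minus strand, at chr12:54795613-54795912 for Snx6 and at chr2:144270523-144270822 for Snx5. Capitals mark GC boxes (GGGCGG) and the E-box CACGTG, read on both strands.
Snx6: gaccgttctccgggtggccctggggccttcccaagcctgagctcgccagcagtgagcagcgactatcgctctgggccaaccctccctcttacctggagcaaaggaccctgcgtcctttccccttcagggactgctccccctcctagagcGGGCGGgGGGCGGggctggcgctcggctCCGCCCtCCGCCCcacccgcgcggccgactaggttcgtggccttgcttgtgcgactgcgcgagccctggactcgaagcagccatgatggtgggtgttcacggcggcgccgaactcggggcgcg
Snx5: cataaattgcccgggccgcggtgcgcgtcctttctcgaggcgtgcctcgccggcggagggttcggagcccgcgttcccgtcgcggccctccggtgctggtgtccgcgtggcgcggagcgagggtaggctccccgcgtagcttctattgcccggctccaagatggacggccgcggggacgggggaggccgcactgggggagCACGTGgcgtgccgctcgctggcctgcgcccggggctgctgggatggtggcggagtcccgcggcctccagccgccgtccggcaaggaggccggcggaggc
The Snx6 window held 4 GC boxes, and the Snx5 window held 1 E-box and no GC box. Of 32851 mouse promoters of the same length, 35.7% held a GC box and 7.15% this E-box. The full cyclic AMP response element TGACGTCA (in 1.79% of promoters), its core TGACG (20.8%), which lies within the full element, and CCAAT (37.4%) had no match in either window. GC content was 70.3% for Snx6 and 75.7% for Snx5. A match is a stretch of letters and not a known binding site. Snx2 was not looked up, and of the 9 other members 7 had a promoter entry. The Vps26a entries held 4 and 3 GC boxes and 2 E-boxes each.

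The arrays were alike in overall level, with group means of the median intensity between 94.0 and 97.4, and the lowest correlation between any pair of arrays of a region was 0.974. The signal range of an array, the interquartile range of its log2 values, ran from 3.37 to 3.90. In hippocampus its mean was 3.52 ± 0.10 (SD, n = 16) for vehicle arrays. The treated hippocampal arrays averaged 3.62 ± 0.09 (SD, n = 16), and both treatments averaged 3.64 in prefrontal cortex. Tissue identity was checked with marker genes. All 4 markers of CA pyramidal cells were higher in hippocampus and 3 of 4 markers of cortical layers were higher in prefrontal cortex. Over all probe sets 31.4% passed as higher in hippocampus and 36.9% as lower. The CA marker Spink8 passed the filter only through hippocampus (9.43 against 5.91), so its direction is no check. In treated Tg2576 hippocampus, dentate granule markers had a lowest array mean of 6.20, against 7.82 to 8.16 in the other hippocampal groups. Cortical layer markers had a highest array mean of 9.48 there, against 8.48 to 8.95 in those groups. The main fits kept all arrays. No probe set of App or Pde9a passed the threshold for the transgene in either region. The 2 tested App probe sets, designed for the mouse gene, differed by 0.06 ± 0.03 and 0.01 ± 0.02 (log2, SE) between genotypes in hippocampus, so they check the human transgene only as far as they read it. In bulk tissue, fewer cells of a type and less RNA per cell cannot be told apart.

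Snx6, one of the membrane-bending sorting nexins, was the member on which the choice rested. Its level on probe set 1429497_s_at in vehicle-treated wild-type hippocampus was 8.22 at the lowest, 8.58 at the median and 8.68 at the highest on the log2 scale. Under PF-04447943 the values in wild-type hippocampus were 8.43, 8.92 and 9.08. In Tg2576 hippocampus they were 8.05, 8.44 and 9.02 under vehicle and 8.42, 8.71 and 8.96 under the drug. The medians were higher with the drug in both genotypes, and the ranges of treated and untreated arrays overlapped in both.

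Averaged over genotypes, Snx6 was higher with the drug in hippocampus by 0.30 ± 0.07 (log2, SE, n = 16 arrays per treatment; 1.23-fold) on this probe set, with 14 of 16 treated arrays above the vehicle mean of their genotype. The difference was 0.36 ± 0.11 on 1447234_s_at and 0.19 ± 0.07 on 1425148_a_at. By genotype, 1429497_s_at differed by 0.36 ± 0.10 in wild-type mice and by 0.25 ± 0.10 in Tg2576 mice. The drug by genotype interaction of this probe set in hippocampus was -0.11 ± 0.15, with a 95% interval from -0.41 to 0.19. It is given without a test for Snx6, since the choice of genes used the drug differences that make it up. For this interaction 0 members and 0% of all probe sets were called, and 2 members had an unadjusted p under 0.05, against 3.43% of all. Nothing is read from these counts.

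**Figure D1:**
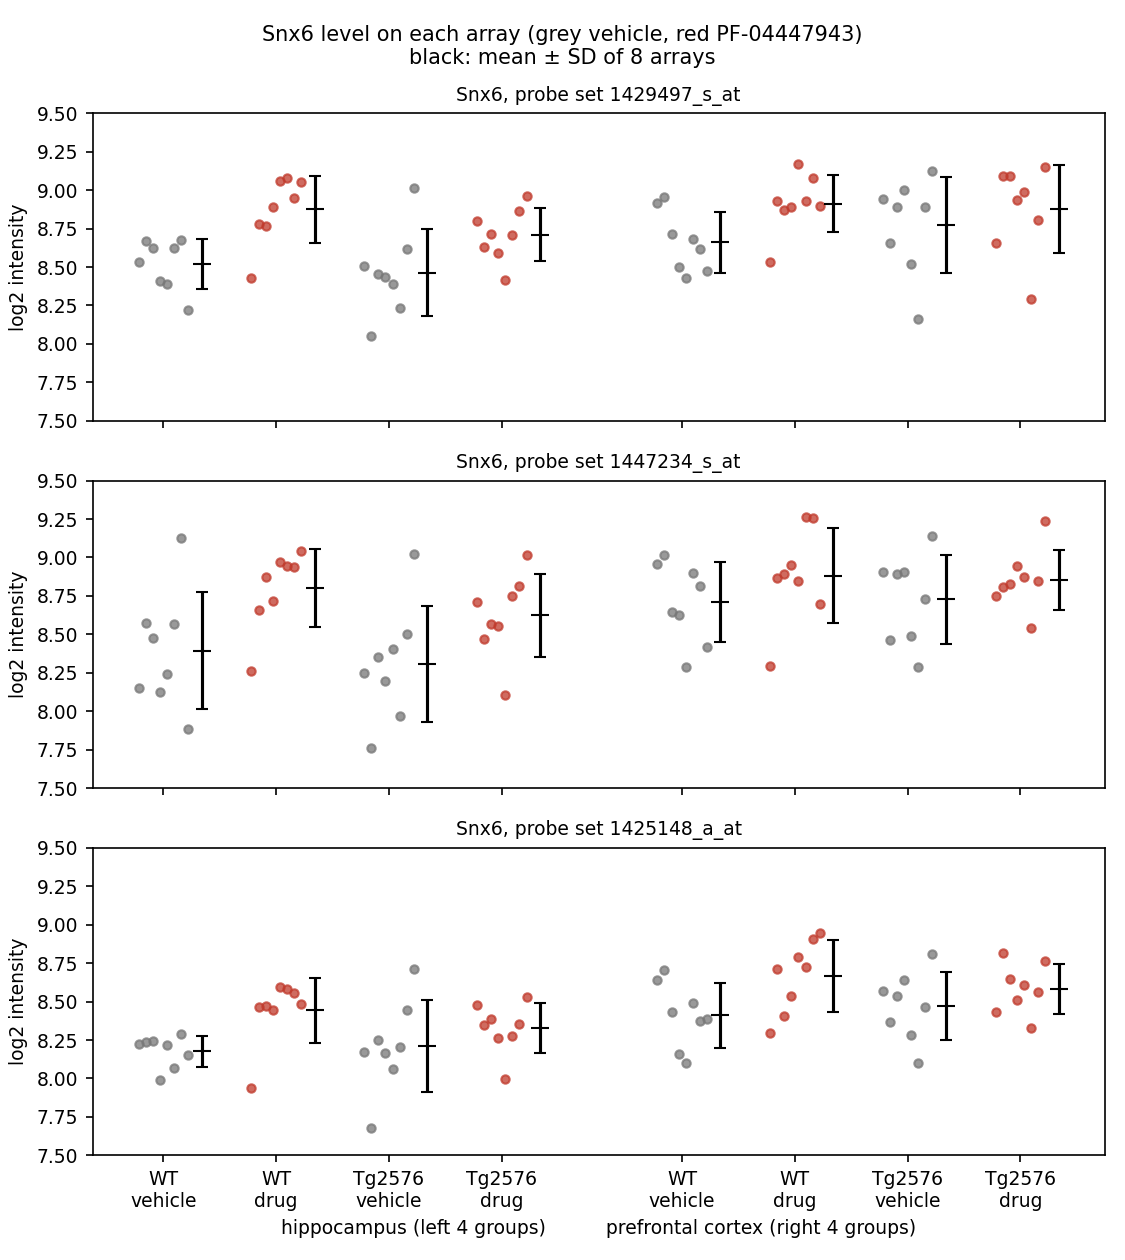
Log2 intensity of the 3 Snx6 probe sets that passed the filter, each point being 1 array, in the 8 groups of 8 arrays (grey vehicle, red PF-04447943), with the mean ± SD in black. Treated medians lie above vehicle medians in every pair, and treated and untreated arrays overlap in every pair.

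Snx6 1429497_s_at was the only member past the threshold of adjusted p under 0.05 in the drug comparison in hippocampus, where 0.777% of all probe sets passed as higher and 1.4% as lower (2.18% in all). Within wild-type mice 0 members passed (0.0037% of all probe sets), and within Tg2576 mice 0 (0% of all). Since that comparison chose the set, nothing is read from the counts. It also rested on single arrays. The count was 0 without wild-type vehicle number 1 or 8, Tg2576 vehicle number 2 or 4, wild-type drug number 8 or Tg2576 drug number 7. It was 2 without wild-type drug number 1 or wild-type vehicle number 7, and 3, all of Snx6, without Tg2576 vehicle number 8. With signal range as a covariate, or after quantile normalization, no member passed. The Snx6 1429497_s_at difference stayed between 0.24 and 0.36 over 13 settings, and between 0.27 and 0.34 when each array was left out in turn.

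The other membrane-bending nexins and the core gave smaller drug differences in hippocampus, again as a description. Snx5, the close relative of Snx6, was higher by 0.16 ± 0.05 on 1417646_a_at, where 16 of 16 treated arrays lay above the vehicle mean of their genotype. Its other probe sets were higher by 0.10, 0.11 and 0.08. Snx2 was higher by 0.09 ± 0.04 and Snx1 by 0.04 ± 0.04. With signal range as a covariate, Snx5 1417646_a_at was at 0.04, Snx5 1448791_at at 0.03 and Snx2 at 0.02. Within groups these followed the signal range of the hippocampal array, with r = 0.67, 0.59 and 0.64 over 32 arrays. The core gene Vps35 was at 0.06 and 0.07, Vps26a at 0.07 and the Vps26b probe sets at 0.04 to 0.07. Of Vps29, 1440641_at was at 0.15 ± 0.07 and the other probe sets at 0.00 to 0.02. Sorl1 was lower by all 3 probe sets, at -0.15 ± 0.06, -0.03 and -0.05. In all, 20 of 24 probe sets had a positive difference, with a median of 0.07 against 0.03 over all probe sets tested. The 4 tested choroid plexus markers had a median drug difference of -0.48 in hippocampus, which was -0.83 among wild-type and -0.02 among Tg2576 mice. The mean level of the 5 listed choroid genes was 8.32 in vehicle-treated wild-type hippocampus and 7.45 to 7.54 in the other hippocampal groups, with single arrays from 6.23 to 11.07. Its part in the drug differences of the members was not tested.

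In prefrontal cortex no member passed the threshold with the drug. The choice of genes did not use the cortical values, but Snx6 deviations correlated between same-numbered arrays of the regions (r = 0.48 to 0.55), so the cortical values are not taken as independent of it. Snx6 1429497_s_at had values of 8.43, 8.65 and 8.95 (lowest, median and highest) in wild-type mice under vehicle and 8.53, 8.91 and 9.17 under the drug. In Tg2576 mice the values were 8.16, 8.89 and 9.12 under vehicle and 8.29, 8.96 and 9.15 under the drug. The treated and untreated groups overlapped over most of their range.

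The Snx6 difference in prefrontal cortex was 0.18 ± 0.09 on 1429497_s_at (limma p = 0.0473, adjusted p = 1, n = 16 arrays per treatment; 95% interval 0.0022 to 0.35; 13 of 16 treated arrays above the vehicle mean). It was 0.18 ± 0.07 on 1425148_a_at (limma p = 0.0158, adjusted p = 1, n = 16; 12 of 16 arrays) and 0.15 ± 0.09 on 1447234_s_at (p = 0.111, adjusted p = 1; 13 of 16 arrays). These lay at the 99.3, 99.3 and 98.8 percentiles of the differences of all probe sets, and the 3 probe sets read the same transcripts, with correlations of 0.74 to 0.85 within groups. With the arrays numbered 1 to 4 alone, a split added after the data were seen, the differences of 1429497_s_at, 1425148_a_at and 1447234_s_at were 0.05, 0.04 and -0.01. With the arrays numbered 5 to 8 they were 0.30, 0.33 and 0.31 (limma adjusted p = 1 in each case). Of the 24 member probe sets, 0 were called by limma and 2, both of Snx6, had an unadjusted p under 0.05, against 0% called and 2.26% under 0.05 among all probe sets. As the cortical Snx6 values are not taken as independent of the choice of genes, nothing is read from their p-values, percentiles or counts. Within wild-type mice 2 members had an unadjusted p under 0.05 (2.43% of all) and within Tg2576 mice 0 (2.93% of all), with 0 called in either. Apart from Snx6 the differences ran from -0.09 for Sorl1 1426258_at to 0.06 for Vps26b 1453762_at. The interaction of drug and genotype for Snx6 in prefrontal cortex was -0.15 ± 0.17 on 1429497_s_at (limma adjusted p = 1; 95% interval -0.50 to 0.20), with 0 members called or under an unadjusted p of 0.05, against 3.06% of all. The difference between the regions in the Snx6 drug effect was 0.12 ± 0.12 on that probe set, given without a test since the choice used it. For the drug effect by region 0 members passed, against 0.0296% of all probe sets.

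**Figure D2:**
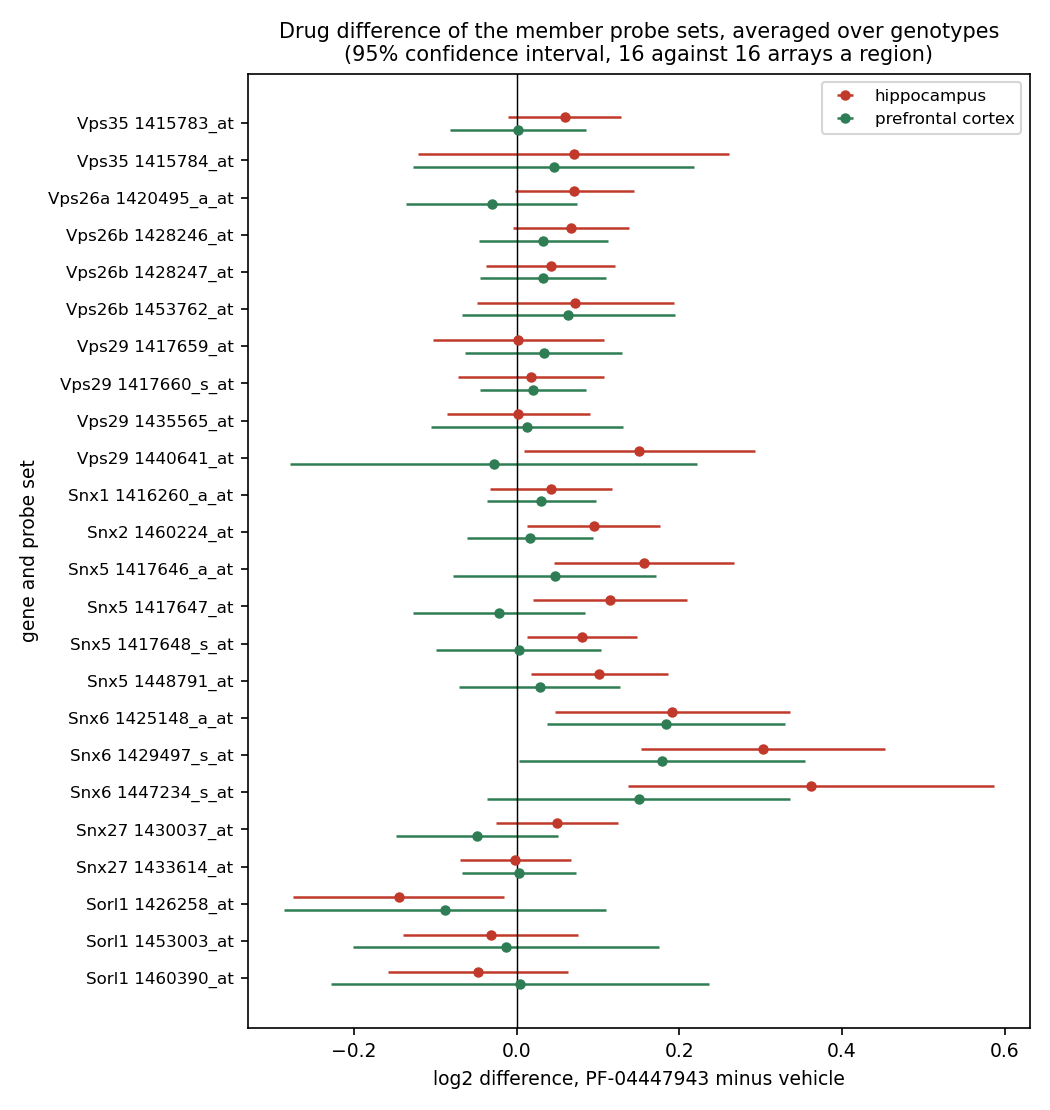
Log2 difference between PF-04447943 and vehicle for each member probe set, averaged over genotypes, in hippocampus (red) and prefrontal cortex (green), with 95% confidence intervals over 16 against 16 arrays. The 3 Snx6 probe sets lie farthest to the right in both regions, at 0.19 to 0.36 and 0.15 to 0.18, and the hippocampal values were used to choose the genes.

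Ordered by mean level of 1429497_s_at, the 8 groups ran from vehicle-treated Tg2576 hippocampus (8.46 ± 0.28, SD, n = 8) and vehicle-treated wild-type hippocampus (8.52 ± 0.16) up to the treated groups of prefrontal cortex (8.88 ± 0.29 in Tg2576 and 8.91 ± 0.19 in wild-type mice). Between them, in rising order, lay vehicle-treated wild-type cortex, treated Tg2576 hippocampus, vehicle-treated Tg2576 cortex and treated wild-type hippocampus. Each step between neighbours in this order was smaller than the SD of either group.

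The effect of the transgene on the retromer genes was tested next. No member differed between Tg2576 and wild-type mice past the threshold in either region. In hippocampus 0 of 24 probe sets were called (limma; 0.0962% of all probe sets were called) and 1 had an unadjusted p under 0.05, against 7.42% of all. In prefrontal cortex 0 were called (0.0259% of all) and 2 had a p under 0.05, against 11.3% of all. Differences ran from -0.13 to 0.16 in hippocampus and from -0.04 to 0.14 in prefrontal cortex.

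Among the core subunits, Vps35, the scaffold of the complex, had the largest single difference. Probe set 1415784_at in vehicle-treated wild-type hippocampus had values of 8.43, 9.05 and 9.40 (lowest, median, highest), and 9.02, 9.34 and 9.68 in vehicle-treated Tg2576 hippocampus. The groups overlapped, although the Tg2576 arrays lay toward the top. The difference under vehicle was 0.36 ± 0.13 (limma adjusted p = 0.808; 95% interval 0.09 to 0.63). Under vehicle 0 members and 0.0111% of all probe sets were called, and 2 members had an unadjusted p under 0.05, against 6.11% of all. Under PF-04447943 the medians were 9.22 in wild-type and 9.21 in Tg2576 hippocampus, and the drug by genotype interaction was -0.40 ± 0.19 (limma adjusted p = 0.983). The other Vps35 probe set, 1415783_at, differed by -4e-04 ± 0.03 between genotypes in hippocampus averaged over treatments, against 0.16 ± 0.09 on 1415784_at (limma adjusted p = 0.998 and 0.732). Under vehicle 1415783_at was at -0.01 ± 0.05.

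Vps26b, the Vps26 subunit enriched in brain, was measured by 3 probe sets in prefrontal cortex. Their differences between Tg2576 and wild-type mice were 0.09 ± 0.04, 0.06 ± 0.04 and 0.14 ± 0.06 (limma adjusted p = 0.405, 0.506 and 0.423). Vps26a was at 0.09 ± 0.05 and the Vps35 probe sets at 0.06 and 0.13 in that region, none of them past the threshold. Snx6 differed by -0.11 ± 0.07 in hippocampus and 0.04 ± 0.09 in prefrontal cortex on 1429497_s_at (adjusted p = 0.759 and 0.863). For Sorl1 the differences between genotypes in hippocampus were -0.05 to 0.00, with 95% intervals that together spanned -0.15 to 0.13. In prefrontal cortex the Sorl1 differences were 0.02 to 0.07, with intervals from -0.17 to 0.30 at the widest. Across regions, the transgene effect differed for 0 of 24 member probe sets (limma; 0% of all called), and 0 had an unadjusted p under 0.05, against 6.09% of all. Split by treatment, 0 members were called and 0 had an unadjusted p under 0.05 in treated hippocampus (4.69% of all under 0.05), vehicle-treated cortex (10.8%) and treated cortex (3.39%).

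The drug difference in hippocampus, which chose the genes, is described without a test. Of the group comparisons that were tested, only that between hippocampus and prefrontal cortex had members past the threshold. Of 24 probe sets, 17 passed, 5 higher and 12 lower in hippocampus. Over all probe sets 68.3% passed, 31.4% higher and 36.9% lower, so the total is near the background. The median difference, hippocampus minus prefrontal cortex, was -0.11 for the members and -0.02 over all probe sets. With 1 probe set per gene, 8 of the 10 genes passed, against 72.1% of all genes.

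Of the core, Vps35 and Vps26a fell in hippocampus relative to prefrontal cortex. On Vps35 1415784_at the medians of the 4 hippocampal groups ran from 9.05 to 9.34, with single arrays from 8.43 to 9.68, and those of the cortical groups from 9.55 to 9.74, with single arrays from 9.09 to 10.16. All 32 hippocampal arrays lay below the cortical mean of their genotype and treatment, although the ranges overlapped. The difference was -0.47 ± 0.06 (limma, SE, n = 32 arrays per region, adjusted p = 3.35e-09; 1.39-fold), and -0.10 ± 0.03 on 1415783_at (adjusted p = 0.000388). Vps26a was at -0.21 ± 0.03 (limma adjusted p = 2.76e-08; 31 of 32 arrays), with hippocampal medians of 9.90 to 10.04 and cortical medians of 10.14 to 10.30.

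Vps26b, the alternative subunit to Vps26a, had the opposite sign. It was higher in hippocampus by 0.16 ± 0.04 on 1453762_at (limma adjusted p = 0.00156) and by 0.09 ± 0.03 on 1428247_at (adjusted p = 0.00271), and 1428246_at was at 0.04 ± 0.03 (adjusted p = 0.151). With RNA quality, the 3 prime minus 5 prime difference of control probe sets, as a covariate, the first 2 were 0.07 and 0.06 (adjusted p = 0.142 and 0.06), and with median centring 1428247_at was 0.07 (adjusted p = 0.0588). Group means of RNA quality ran from 0.052 to 0.093 in hippocampus and from 0.102 to 0.153 in prefrontal cortex. On the arrays numbered 1 to 4 alone the differences were 0.02, -0.0046 and -0.06 in that order (limma adjusted p = 0.756, 0.901 and 0.0722).

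Vps29, the smallest core subunit, was not of one direction. Probe set 1435565_at was lower in hippocampus by all 32 arrays, with a difference of -0.28 ± 0.04 (limma adjusted p = 4.47e-10), 1440641_at was at 0.21 ± 0.07 (adjusted p = 0.00686), and 1417659_at and 1417660_s_at were at 0.04 and -0.01 (adjusted p = 0.377 and 0.745). The 1440641_at value was 0.13 (adjusted p = 0.0749) once signal range entered the fit and 0.02 (adjusted p = 0.833) on the arrays numbered 5 to 8. No direction is given for Vps29 as a gene.

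Of the membrane-bending nexins, Snx5 fell by every probe set tested. On 1417646_a_at the hippocampal medians ran from 9.01 to 9.24, with single arrays from 8.72 to 9.41, and the cortical medians from 9.51 to 9.64, with single arrays from 8.87 to 9.79. All 32 hippocampal arrays lay below the cortical mean of their group. The lowest cortical array, at 8.87, was wild-type drug number 8. The differences of the 4 probe sets were -0.41 ± 0.04, -0.31 ± 0.03, -0.24 ± 0.03 and -0.32 ± 0.03, with limma adjusted p from 2.41e-10 to 1.56e-13.

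Snx6 fell as well, averaged over treatments, by all 3 probe sets tested, although less evenly. Under vehicle the means of 1429497_s_at in wild-type and Tg2576 mice were 8.52 and 8.46 in hippocampus, against 8.66 and 8.77 in prefrontal cortex. Under the drug, which the choice of genes used in hippocampus, they were 8.87 and 8.71 against 8.91 and 8.88. The regional differences were -0.26 ± 0.07 on 1447234_s_at (limma adjusted p = 0.00136), -0.24 ± 0.05 on 1425148_a_at (adjusted p = 3.53e-05; 31 of 32 arrays below the cortical mean) and -0.16 ± 0.06 on 1429497_s_at (adjusted p = 0.0101; 24 of 32 arrays). On the arrays numbered 5 to 8 alone, 1429497_s_at was at -0.06 (adjusted p = 0.593) and 1447234_s_at at -0.15 (adjusted p = 0.308). Snx1, the partner of both nexins, rose in hippocampus by 0.15 ± 0.02 (limma adjusted p = 1e-07; 29 of 32 arrays), with medians of 9.29 to 9.40 there and 9.17 to 9.26 in prefrontal cortex. Snx2, the alternative partner, was at -0.06 ± 0.03 (adjusted p = 0.0531), and did not pass. It was called in 7 of 13 other settings and in 18 of 64 fits with 1 array left out. On the arrays numbered 5 to 8 alone Snx2 was at 0.025.

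Snx27, which sends cargo to the plasma membrane, rose in hippocampus on 1433614_at by 0.20 ± 0.02 (limma adjusted p = 4.4e-11), and all 32 hippocampal arrays lay above the cortical mean. Its hippocampal arrays ran from 9.45 to 9.79 and its cortical arrays from 9.20 to 9.51. Its other probe set, 1430037_at, was at -0.03 ± 0.03 (adjusted p = 0.412). Sorl1 fell in hippocampus on 1426258_at, at -0.21 ± 0.06 (limma adjusted p = 0.00144; 27 of 32 arrays), while 1453003_at and 1460390_at were at -0.06 and -0.12 and did not pass.

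**Figure D3:**
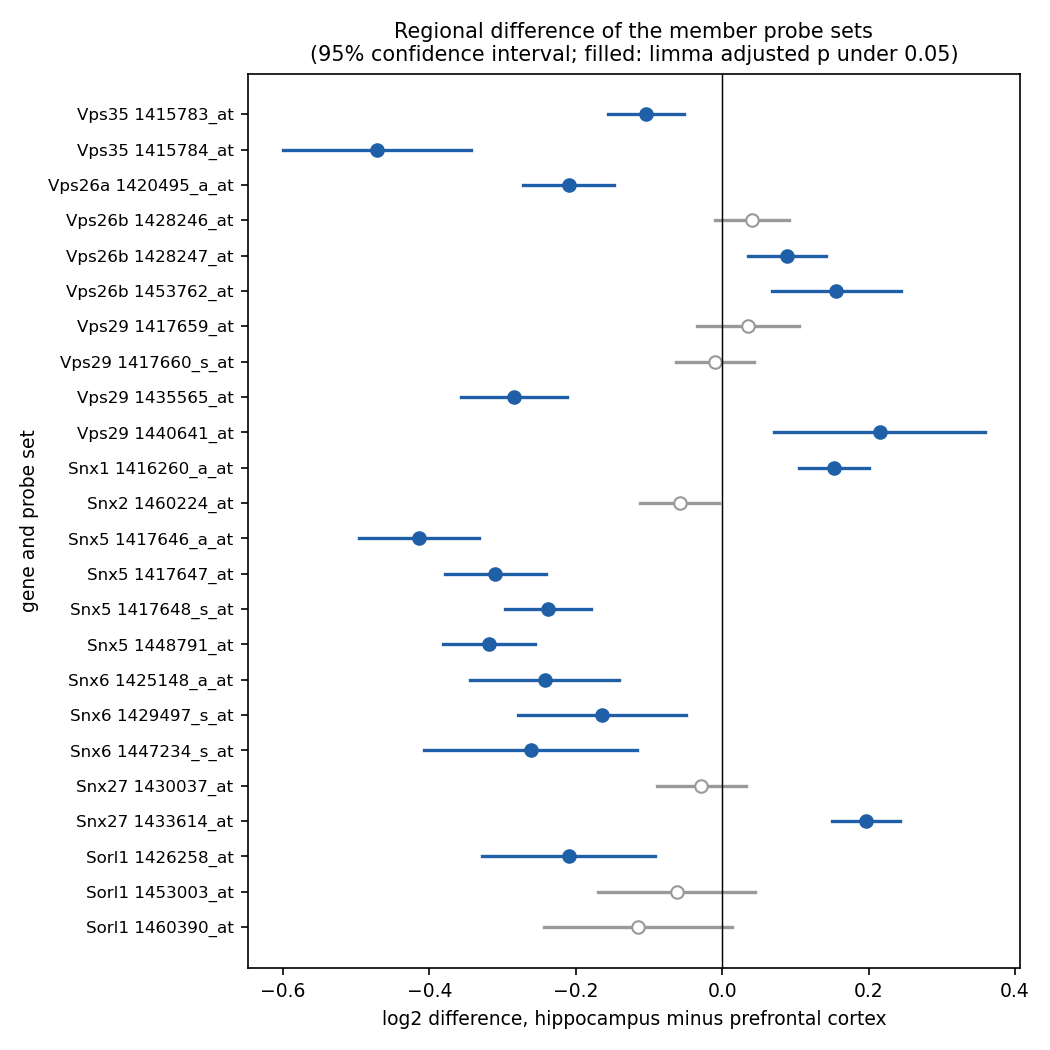
Log2 difference of each member probe set between hippocampus and prefrontal cortex with its 95% confidence interval, over 32 arrays per region (filled points passed a limma adjusted p of 0.05). All Snx5 and Snx6 points lie to the left of 0, Snx1 lies to the right, and the probe sets of Vps29 and Snx27 disagree among themselves.

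The regions also differed in their cell markers, given here as counts past the threshold. Over all probe sets 31.4% passed as higher and 36.9% as lower in hippocampus. The 5 tested oligodendrocyte genes were all higher in hippocampus (median difference 0.58), and their mean level had group means of 11.89 to 12.12 there and 11.35 to 11.60 in prefrontal cortex. Of 6 pan-neuronal genes, 0 were higher and 5 lower in hippocampus (median -0.14), with group means of 12.66 to 12.76 against 12.82 to 12.88. Astrocyte genes had 3 higher and 2 lower of 6, microglial genes 1 and 2 of 6, and endothelial genes 0 and 4 of 4. Dentate granule genes had 4 higher and 1 lower of 5, but only 2 of the list passed the filter of prefrontal cortex. Striatal neuron markers were lower in hippocampus by 4 of 4, and cortical arrays ran from 7.77 to 11.06 in their mean level. Choroid plexus markers were higher by 3 of 3, and hippocampal arrays ran from 6.23 to 11.07. Of these markers, Kl passed the filter on the mean of both regions only through hippocampus (8.14 against 5.16 in prefrontal cortex). Nothing is read from its direction. The part of these cell types in the regional differences of the members was not tested. With the drug, 0 markers of any list were called in prefrontal cortex (limma).

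Of the wider pathway, 56 of 57 listed genes passed the filter: retromer partners, other sorting nexins, the retriever complex with its CCC partners, and receptors of the VPS10 family with mannose phosphate receptors. None was called for the transgene in either region (limma; 5 in hippocampus and 10 in prefrontal cortex had an unadjusted p under 0.05, against 7.42% and 11.3% of all probe sets) or for the drug in prefrontal cortex (1 under 0.05, against 2.26% of all). Between regions, 16 of 56 were higher and 22 lower in hippocampus, near the 31.4% and 36.9% of all probe sets, so the counts are not particular to these lists. The retriever and CCC list had 1 higher and 8 lower of 14, and the other sorting nexins 8 and 8 of 22. Among retromer partners, 3 were higher and 5 lower of 14, and among the receptors 4 were higher and 1 lower of 6.

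Of the pathway genes higher in hippocampus, Ehd1, which helps to scission and recycle endosomal tubules, differed most, by 1.02 ± 0.05 (limma adjusted p = 7.85e-27). Snx24 rose by 0.42, Snx33 by 0.34 and Snx30 by 0.29. Of those lower in hippocampus, the VPS10 receptor Sorcs1 was at -0.84 ± 0.06 (adjusted p = 1.94e-18). Ankrd50, a retromer partner, was at -0.56, Snx16 at -0.53 and Snx7 at -0.38. In the drug comparison in hippocampus, which chose the set, 1 of the 56 genes passed the threshold as higher and 1 as lower. Over all probe sets 0.777% passed as higher and 1.4% as lower, and nothing is read from the counts. The listed genes past the threshold were Washc4 of the WASH complex, which nucleates actin on endosomes, at 0.21 ± 0.05, and Snx20 at -0.27 ± 0.07. In prefrontal cortex the same genes were at -0.03 and 0.07.

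Within groups, no relation of Snx6 with another member passed adjustment in the main setting. Over deviations from group means on the 32 arrays of a region, the correlation of Snx6 with the 9 other members and with signal range was computed, 10 relations in each region. In hippocampus 0 passed adjustment and 0 had an unadjusted permutation p under 0.05. In prefrontal cortex 0 passed and 2 had a p under 0.05. Vps26a had r = 0.48 (permutation p = 0.00823, adjusted p = 0.0823; rho = 0.47, permutation p = 0.0101), and r was 0.33 without the 2 arrays farthest from the median. Given signal range, the partial r of Vps26a with Snx6 was 0.54 (permutation, adjusted p = 0.00765). Vps35 had r = 0.34 (permutation p = 0.049, adjusted p = 0.245; rho = 0.29, permutation p = 0.107), and r was 0.34 without the 2 farthest arrays. Several members tracked the signal range of the array closely in prefrontal cortex, with r = 0.85 for Vps26a, 0.84 for Vps29 1435565_at, 0.81 for Sorl1 1460390_at and -0.75 for Vps29 1440641_at. Snx6 did so less there, with r of 0.01 to 0.25, as did Vps29 1417660_s_at at 0.09 and 1417659_at at -0.22. In hippocampus Snx6 had r of 0.22 to 0.27, within the range of the other members. These ran from -0.11 for Sorl1 1426258_at to 0.67 for Snx5 1417646_a_at.

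The level of Snx6 also moved together in the 2 regions by array number. Over 32 pairs of arrays with the same group and number, the deviations of 1447234_s_at from their group means had r = 0.55 (permutation within groups, adjusted p = 0.0198 over 24 probe sets; rho = 0.47). For 1429497_s_at r was 0.52 (permutation, adjusted p = 0.0326; rho = 0.49; r = 0.39 without the 2 farthest arrays) and for 1425148_a_at it was 0.48 (permutation, adjusted p = 0.0441; rho = 0.46). Vps35 1415784_at gave r = 0.61 (permutation, adjusted p = 0.0125) and Vps26a r = -0.50 (permutation, adjusted p = 0.0326). The other Vps35 probe set, 1415783_at, gave r = 0.10 (permutation, adjusted p = 0.812). The 5 past adjustment by r were those of Snx6, Vps35 1415784_at and Vps26a, and the median r over the 24 was 0.08. By rho, Sorl1 1426258_at passed as well (rho = 0.51, permutation, adjusted p = 0.0393). Signal range itself had r = -0.64 between same-numbered arrays. This comparison was added after the data were seen.

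**Figure D4:**
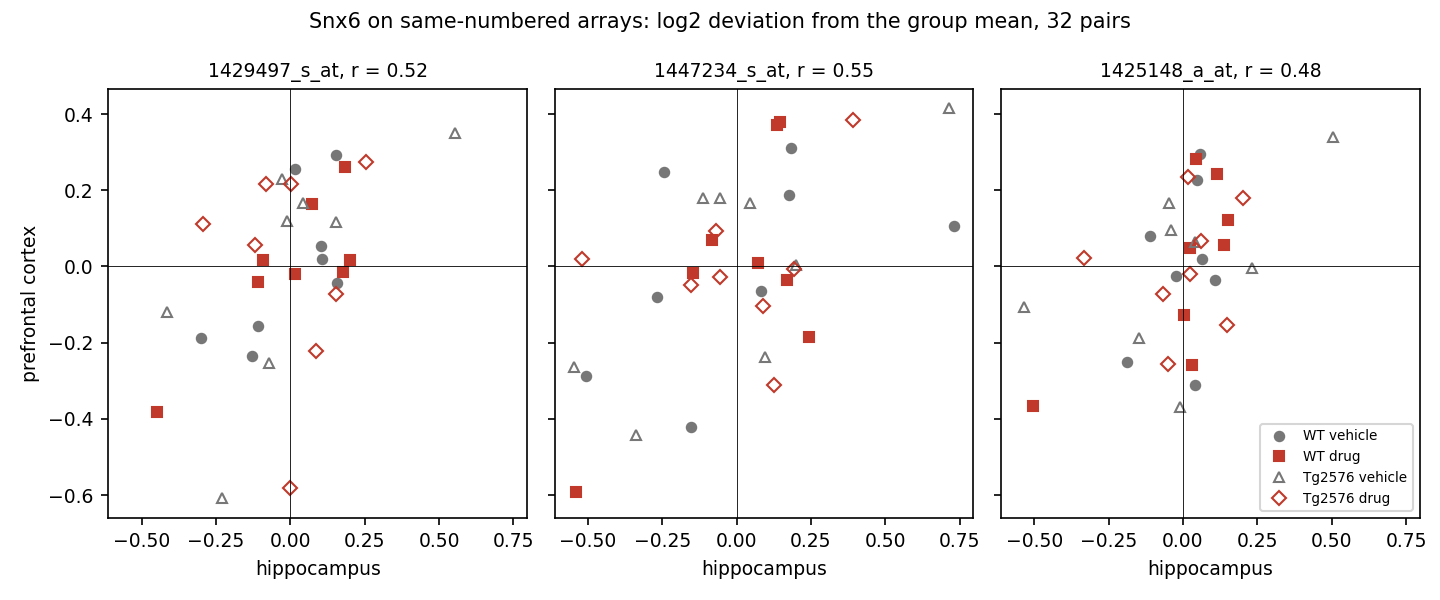
Deviation of Snx6 from its group mean (log2) in prefrontal cortex against that in hippocampus for the 32 pairs of arrays with the same group and number, by probe set (grey vehicle, red PF-04447943; filled wild-type, open Tg2576). Points run from lower left to upper right, with r of 0.48 to 0.55.

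The genes whose pattern within groups was most like that of Snx6 included several on its own chromosome, 12. Likeness was Pearson's r over deviations from group means on 32 arrays, and it is a description. In hippocampus the 5 most alike of 12960 genes were 2900060N12Rik (0.73), Mboat2 (0.72), Tmem18 (0.69), Ap4s1 (0.68) and Sox11 (0.66), all on chromosome 12. In prefrontal cortex they were Gm9866 (0.75), Ap4s1 (0.70), 2900060N12Rik (0.69), Wwox (0.67) and Grhl1 (0.64), of which Wwox lies on chromosome 8 and the others on 12. Among the 20 most alike, 8 in hippocampus and 10 in prefrontal cortex lay on chromosome 12, which holds 3.57% and 3.6% of the genes compared. For the other members the count on their own chromosome was 0 to 4 of 20.

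**Figure D5:**
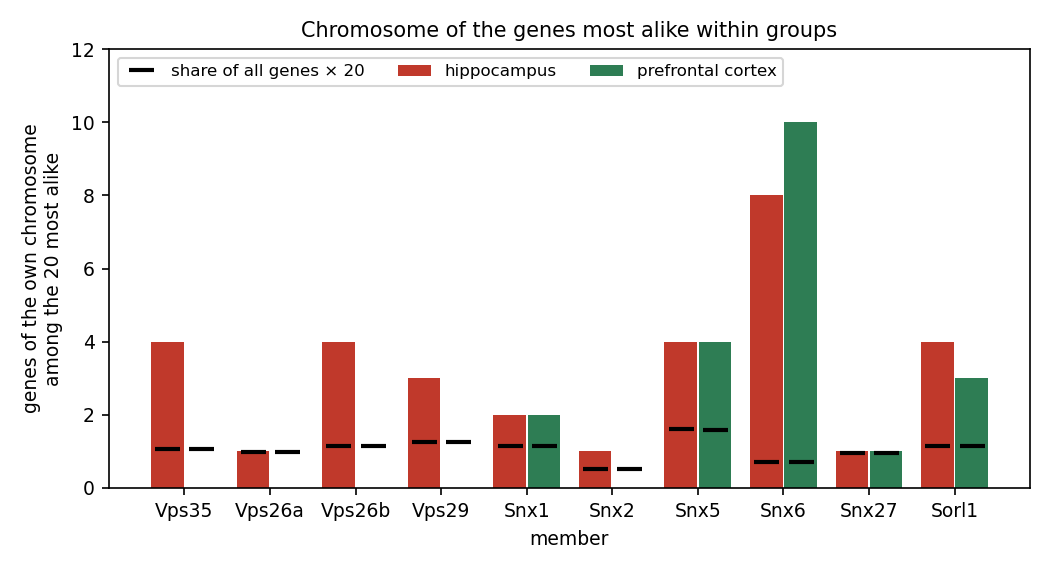
Number of genes on a member's own chromosome among the 20 genes most alike to it within groups, for hippocampus (red) and prefrontal cortex (green), with the number the chromosome's share of all genes would give (black). Snx6 stands at 8 and 10, and the other members at 0 to 4.

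Apart from Wwox, these genes had positive drug differences in hippocampus, as a description. Ap4s1, a subunit of an adaptor complex of the trans-Golgi network, was at 0.16 ± 0.05. 2900060N12Rik was at 0.33 ± 0.15, Mboat2 at 0.24 ± 0.12 and Tmem18 at 0.15 ± 0.06. Sox11 was at 0.48 ± 0.33, Grhl1 at 0.09 ± 0.09 and Gm9866 at 0.09 ± 0.10. In prefrontal cortex Ap4s1 was at 0.13 ± 0.05, Mboat2 at 0.27 ± 0.11 and 2900060N12Rik at 0.12 ± 0.13. Tmem18 was at 0.06 ± 0.04 there, Sox11 at 0.34 ± 0.30, Grhl1 at 0.05 ± 0.09 and Gm9866 at 0.05 ± 0.11. Wwox was at -0.03 in hippocampus and 0.02 in prefrontal cortex.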

How the data were processed

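RNA from 64 dissected tissue samples was measured on 1 Affymetrix array each. The deposited values are RMA intensity values from the authors on a linear scale (RMA per the submitters' processing notes), and log2 was taken here. Which RMA program was run, and whether on all arrays together, is not stated in the sources used. The number of arrays limits the precision. Probe sets were named through the platform's annotation, updated with RefSeq (GRCm38.p6): 34945 had 1 symbol, 932 several and 9160 none. Probe sets at or above the 40th percentile of the mean (log2 5.94 in hippocampus, 5.91 in prefrontal cortex, 5.93 for both) were tested, 27022 in each case, with limma 3.58.1 in R 4.3.3, two-sided, adjusted over all of them by Benjamini-Hochberg, and a threshold of 0.05. The fit held the 4 groups of a region, or all 8 for the regional comparison, with no replicate block, and was tested on simulated data. Differences are on the log2 scale, and values written as fold are linear. Permutation tests used 1e+05 resamples, two-sided, in Python 3.11.15 with numpy 2.4.6, pandas 2.3.3 and scipy 1.17.1; plots used matplotlib 3.10.9. The limma p-values set a difference against the spread between arrays, which the fits took as independent. Whether arrays of the 2 regions share mice is not stated, so the regional spread may not be one between independent mice.

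The members and all lists were chosen with earlier results of these data known. Every probe set of a member is reported. Other pathway genes named are up to 4 past the threshold with the largest difference in each direction, and the 5 genes most like Snx6 in each region are named by Pearson's r. Alternatives were other filters, 1 probe set per gene, quantile normalization, median centring, a trended robust prior, array weights, covariates for signal range and for RNA quality (3 prime minus 5 prime difference of control probe sets), replicate blocks, only the groups compared, and each array left out. Array numbers 1 to 4 or 5 to 8 alone were added after the data were seen.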

Additional observations from a re-analysis of the deposited data

Results flagged for a closer look

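In 16 of the 192 sets of 8 arrays (24 probe sets in 8 groups), 1 array stood apart from its group, its gap to the nearest array, as a share of the group's range, passing Dixon's 95% critical value; about 9.6 would be so by chance. Of Snx6, wild-type drug number 1 was low in both regions: in hippocampus on 1425148_a_at it was at 7.94 while the other 7 arrays ran from 8.45 to 8.59 (gap share 0.776), and in prefrontal cortex on 1429497_s_at it was at 8.53 against 8.87 to 9.17 (0.531). Of Snx5, wild-type drug number 8 in prefrontal cortex was low on 1448791_at (0.71), 1417646_a_at (0.706) and 1417648_s_at (0.598), and on 1417646_a_at it was at 8.87 against 9.49 to 9.75. That array was also low for Vps29 1435565_at (0.605) and Sorl1 1453003_at (0.56). In hippocampus, Tg2576 drug number 7 was high on Snx5 1417646_a_at (0.725), at 9.41 against 9.06 to 9.16. Of Vps29, Tg2576 drug number 2 in prefrontal cortex was low on 1417659_at (0.705) and 1417660_s_at (0.603), Tg2576 vehicle number 3 in hippocampus on 1417660_s_at (0.605), and Tg2576 drug number 1 in hippocampus on 1417659_at (0.57). Of Sorl1, wild-type vehicle number 5 in prefrontal cortex was low on 1426258_at (0.606), at 11.30, and on 1453003_at (0.557). Single low arrays of prefrontal cortex were also found for Vps26b 1428246_at (wild-type vehicle number 7, 0.589) and Snx27 1433614_at (wild-type drug number 6, 0.552). None of these arrays was left out of the values in the report.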

How the results depend on the processing

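Of the tested comparisons, the count of members past the threshold stayed at 0 for the transgene, the drug in prefrontal cortex, the interactions and the transgene effect by region under every alternative run, each array left out included. The regional count was 17 (17 to 19 with each array left out) and 8 of 10 genes with 1 probe set per gene, which tests fewer features. The drug count in hippocampus, described without a test, was 1. It was 0 after quantile normalization, 0 with signal range as a covariate, 2 with the replicate block, 2 with the lower and upper part of the numbering (1 to 4, 5 to 8) blocked, 4 with numbers 1 to 4 only, 0 with numbers 5 to 8 only, and 0 to 3 with each array left out; the cause was not tested. The count of relations of Snx6 with other members in prefrontal cortex was 1 given signal range, for Vps26a (partial r = 0.54, permutation, adjusted p = 0.00765). Regional differences that changed sign were, after quantile normalization, Vps29 1417660_s_at (0.0061) and Snx27 1430037_at (0.0081); with signal range as a covariate, Snx27 1430037_at (0.0093); with RNA quality as a covariate, Snx27 1430037_at (0.0193), Vps29 1417659_at (-0.0204) and Sorl1 1453003_at (0.0252); with numbers 1 to 4 only, Vps26b 1428246_at (-0.0572) and 1428247_at (-0.0046); with numbers 5 to 8 only, Vps29 1417660_s_at (0.0305), Snx27 1430037_at (0.0591), Sorl1 1453003_at (0.0132), Sorl1 1460390_at (0.0763) and Snx2 (0.025); and with each array left out, Vps29 1417660_s_at (-0.0192 to 0.0013, positive without Tg2576 drug number 1 in hippocampus). Of these, Vps26b 1428247_at was the only called one. The drug difference of Snx6 1447234_s_at in prefrontal cortex was -0.0112 with numbers 1 to 4 only. Correlations with Snx6 that changed sign were all near 0 in the main setting: in hippocampus Snx27 (-0.02 as rho and as partial r), Sorl1 (0.04 as rho, 0.01 as partial r), Vps29 (0.01 without the 2 farthest arrays) and Vps26b (-0.06 as partial r), and in prefrontal cortex Snx27 (0.02 as rho). Calls lost between regions were Vps26b 1428247_at with median centring (0.07) and RNA quality (0.06), Vps26b 1453762_at with RNA quality (0.07) and numbers 1 to 4 only (0.02), Vps29 1440641_at with signal range (0.13), and with numbers 5 to 8 only Vps35 1415783_at (-0.03), Sorl1 1426258_at (-0.16), Vps29 1440641_at (0.02) and the Snx6 probe sets named in the report. Over all probe sets the hippocampal drug comparison called 589, against 1666 with no filter, 148 with the 60th percentile filter, 257 after quantile normalization, 365 with median centring, 918 with array weights, 1 with signal range as a covariate, 1206 with the replicate block, 1408 with the number block, 2399 with numbers 1 to 4 only and 0 with numbers 5 to 8 only. The transgene called 26 in hippocampus (1 to 43 over these settings) and 7 in prefrontal cortex (0 to 65). The replicate block kept the same 17 regional calls. The numbers did not meet the rule for pairs, which asks for every correlation over 0.1: deviations of same-numbered arrays of a group correlated between regions from -0.26 to 0.66 over all probe sets, 21 of 32 pairs were over 0.1, and 16 of 32 arrays correlated best with their own number, against 4 with no relation between numbers, a hint from the data that some numbers are shared.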
